A study of Homo sapiens with 12 samples.

Results

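HEK 293T cells kept for 72 h with 1 µM PDP were compared with DMSO-treated HEK 293T cells. PDP is a compound given here only by its code name, and the series that tested it concerned G-quadruplexes, stacked structures that G-rich DNA can form. Genes were included where the authors' deposited table had completed a test and the 2 conditions had a geometric mean of at least 1 FPKM. FPKM is the number of fragments scaled to transcript length and to the number of mapped fragments. The rule took 13518 of 58083 listed genes, while 1905 tested genes were under the minimum and 42660 were not tested. MARVELD3 lay just inside the minimum with 2.06 FPKM with PDP and 0.487 FPKM in the control, and IL10RA just outside with 1.99 FPKM with PDP and 0.502 FPKM in the control.

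The series held 12 samples in 6 groups of 2, namely PDP for 72 h, PDP for 24 h, PDP for 3 h, DMSO for 3 h, and a G-quadruplex pull-down from annealed genomic DNA with its input. HEK 293T is an established line from human embryonic kidney that carries the SV40 large T antigen, a viral protein that binds p53 and RB, and every RNA group was made from this line. Poly(A) RNA was sequenced, and the tables gave a single pooled FPKM per gene and condition. No value of a single library, no SD and no depth could therefore be given, and whether 1 library carried a difference was not tested. The labels do not say whether the libraries of a group came from separate cultures.

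The control in the 72 h table was the 3 h DMSO control. Its values equalled those of the 3 h table times 0.968, and the log2 ratio of the 2 had an SD of 0.000854 across 13368 genes. Effects of PDP and effects of 72 h in culture cannot be told apart in any value below.

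A gene is written as called, risen or fallen where the authors' deposited table gave it a q-value under 0.05. Log2 fold changes are PDP over control, computed from the pooled FPKM. Each standard error (SE) is the one implied by the test statistic in the authors' deposited table, and it need not describe the same spread as the q-value. In bulk RNA of this kind, fewer cells of a type and less RNA per cell cannot be told apart. In poly(A) libraries, a change in a transcript and a change in its copies with a poly(A) tail cannot be told apart either. This holds in both directions for every gene below, among them the noncoding RNAs MALAT1 and NEAT1 and the mitochondrial gene MT-ND6.

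Cells sense low oxygen through prolyl hydroxylases that mark the HIF transcription factors for destruction; when the enzymes slow, HIF accumulates and switches on glucose uptake, glycolysis and factors that limit mitochondrial use. Growth-factor and stress kinases act faster, through early response genes such as FOS and IER3. Ribosome assembly, DNA replication and mitochondrial gene expression are the large biosynthetic programs of a dividing cell. Ligands of G-quadruplexes have been studied for effects on promoters, telomeres, replication forks and mitochondrial DNA, all of which have runs of guanine.

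The HEK 293T markers were detected in both conditions, with PAX2 under 1 FPKM in the control (0.868 FPKM, against 3.31 FPKM with PDP). VIM, NEFL, NEFM, KRT8 and PAX2 were called higher with PDP, and KRT18 and CDH2 were not called. All 7 were at 1 FPKM or more in at least 1 condition, and their summed level was 784 FPKM with PDP and 380 FPKM in the control. VIM, an intermediate filament gene, made up 399 FPKM with PDP and 251 FPKM in the control. Markers of macrophages and leukocytes (0 of 6), endothelium (0 of 5) and liver (0 of 4) did not reach 1 FPKM in either condition, and the highest of these values was 0.753 FPKM, for APOA1 with PDP. Of the fibroblast markers 3 of 6 reached 1 FPKM, with sums of 26.9 FPKM with PDP and 15.1 FPKM in the control, and COL1A2 was at 0 in the control. Neuron markers reached 1 FPKM for 3 of 4 (22.4 FPKM with PDP, 13.3 FPKM in the control). Keratinocyte markers reached it for 1 of 4 (2.16 FPKM with PDP, 0.676 FPKM in the control). That marker, SFN, was called higher, with 2.12 FPKM with PDP and 0.606 FPKM in the control, while KRT5 was at 0 in both conditions. The part of these markers in the results was not tested.

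After 72 h of PDP, 2721 of the 13518 genes were called higher (20.1%) and 1854 lower (13.7%) in the authors' deposited table; over all 15423 tested genes the shares were 19% and 12.8%. At 24 h the shares called were 9.26% higher and 9.16% lower of 13719 genes, and at 3 h 0.105% and 0.00747% of 13386 genes, all against the same control. The median log2 fold change of all genes at 72 h was 0.11, and scaling both conditions to the same FPKM sum would subtract 0.10 from every gene. Called increases had a median of 0.99 and called decreases a median of -0.85. Large changes were mostly increases, with 300 called genes higher and 88 lower by 2 or more on the log2 scale, and 60 higher and 7 lower by 3 or more. The smallest p-value of the authors' deposited table, 5e-05, was shared by 1964 genes, which all had q = 0.000393, so q does not rank the strongest changes. Among 8943 genes not called, 675 differed by 1 or more on the log2 scale.

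**Figure D1:**
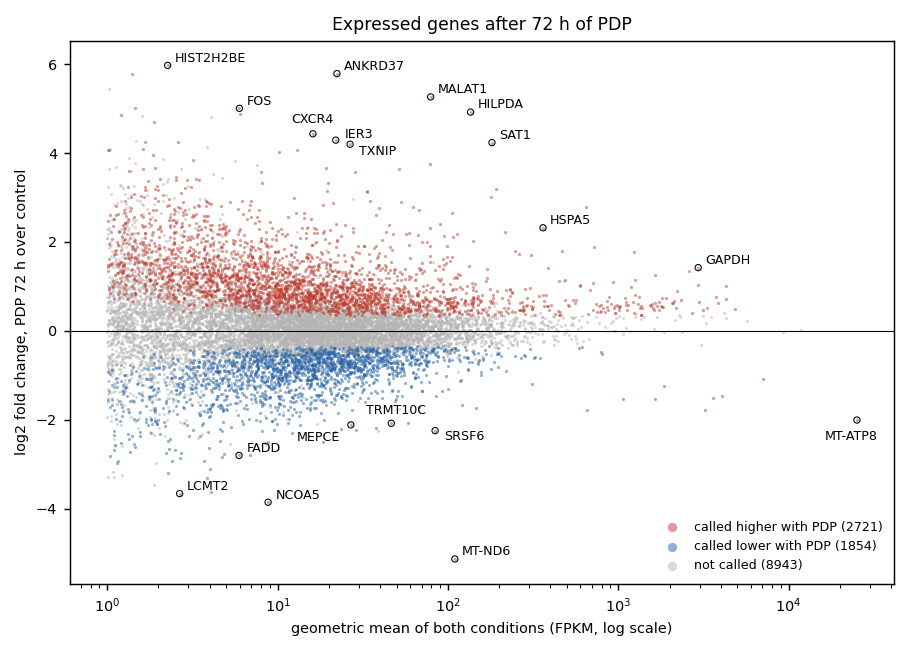
Log2 fold change of each of the 13518 expressed genes after 72 h of PDP over the DMSO control (y axis) against the geometric mean FPKM of both conditions (x axis, log scale). Red points are the 2721 genes called higher, blue points the 1854 called lower and grey points the 8943 not called; HIST2H2BE lies at the top and MT-ND6 at the bottom.

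The 15 largest increases were histone genes, hypoxia genes, early response genes and a few genes of other kinds. Loci given with the genes are those of the authors' deposited table. Such a locus can take in neighbouring genes, so it need not be the gene's own span. The genes CTC1 and PFAS, for example, had the same locus. HIST2H2BE (chromosome 1, 149884459 to 149886652, GRCh38.p7 as in all loci given here) encodes a histone H2B and had 17.9 FPKM with PDP and 0.286 FPKM in the control, a log2 fold change of 5.97 (SE 0.79). ANKRD37 (chromosome 4, 185396021 to 185425985), a small ankyrin repeat protein induced by HIF, had 166 FPKM with PDP and 3.00 FPKM in the control (5.79, SE 0.66). HIST3H2BB, another H2B gene, had 10.3 FPKM with PDP and 0.189 FPKM in the control. Histone genes of this class make transcripts that mostly lack a poly(A) tail, so a poly(A) library holds only part of them. With a pseudocount of 1 FPKM, HIST2H2BE had a log2 fold change of 3.88 and HIST3H2BB of 3.25, both below the 5.38 of ANKRD37 and the 5.16 of MALAT1, so the order of the largest increases depends on how low control values are treated.

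MALAT1 (chromosome 11, 65497762 to 65506516), a noncoding RNA of nuclear speckles, had 491 FPKM with PDP and 12.8 FPKM in the control, a log2 fold change of 5.26 (SE 0.42). FOS, which pairs with JUN proteins to form AP-1, had 33.9 FPKM with PDP and 1.05 FPKM in the control. HILPDA (chromosome 7, 128455840 to 128506602), which blocks lipid breakdown in lipid droplets, had 748 FPKM with PDP and 24.7 FPKM in the control, which puts it among the more abundant transcripts of the treated cells. HIST2H2AA3, an H2A gene with a near-identical copy that makes its value uncertain, had 32.6 FPKM with PDP and 1.10 FPKM in the control.

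CXCR4 (chromosome 2, 136114349 to 136118165), the receptor of the chemokine CXCL12, had 75 FPKM with PDP and 3.47 FPKM in the control (log2 fold change 4.43, SE 0.31). SAT1 (chromosome X, 23783173 to 23786226), the acetyltransferase that starts polyamine breakdown, had 787 FPKM with PDP and 41.8 FPKM in the control (4.23, SE 0.21). IER3, an early response gene that modulates survival signals, had 97.2 FPKM with PDP and 4.97 FPKM in the control. These 3 increases were many times their implied SE and came from genes well expressed with PDP.

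Other large increases started from control levels under 1 FPKM. SLC2A3, the neuronal-type glucose transporter, had 11.4 FPKM with PDP and 0.599 FPKM in the control. LINC00173, a noncoding RNA, had 9.54 FPKM with PDP and 0.368 FPKM in the control. AMPD3, an AMP deaminase, had 7.28 FPKM with PDP and 0.383 FPKM in the control, with an SE of 2.60 for a log2 fold change of 4.25. CGA, the shared alpha subunit of glycoprotein hormones, had 6.505 FPKM with PDP and 0.224 FPKM in the control (SE 2.02). The unannotated transcript RP11-368N21.5 completed the set with 8.26 FPKM with PDP and 0.255 FPKM in the control.

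The 15 largest decreases were smaller in size than the largest increases, apart from MT-ND6. MT-ND6, a subunit of respiratory complex I and the protein-coding gene of the mitochondrial light strand, had 18.5 FPKM with PDP and 651 FPKM in the control. Its log2 fold change was -5.13 (SE 0.30). Whether counting used strand is not given, so reads from the other strand may be part of its value. NCOA5 (chromosome 20, 46060985 to 46089952), a coregulator of nuclear receptors, had 2.31 FPKM with PDP and 33.5 FPKM in the control (-3.86, SE 0.31). LCMT2 (chromosome 15, 43323649 to 43330605), which takes part in making the modified base wybutosine in tRNA, had 0.748 FPKM with PDP and 9.48 FPKM in the control. CYP27B1, which makes active vitamin D, had 1.16 FPKM with PDP and 14.3 FPKM in the control.

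PRKACB, a catalytic subunit of protein kinase A, had 1.36 FPKM with PDP and 11.8 FPKM in the control (log2 fold change -3.11, SE 0.71). FADD (chromosome 11, 70203163 to 70207390), the adaptor that links death receptors to caspase 8, had 2.25 FPKM with PDP and 15.7 FPKM in the control (-2.81, SE 0.30). ZNF202, a zinc finger repressor of lipid genes, had 1.76 FPKM with PDP and 12.6 FPKM in the control. ST6GALNAC3, a sialyltransferase, had 0.869 FPKM with PDP and 6.65 FPKM in the control. These are genes of unlike function that lost most of their transcript level.

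RHBDL1, a rhomboid-like protease, had 0.748 FPKM with PDP and 6.83 FPKM in the control, and PTPRZ1, a receptor tyrosine phosphatase, 0.393 FPKM with PDP and 2.75 FPKM in the control (SE 1.70). The others in the set of 15 were RP11-2C24.9, RP11-283I3.6, PRR22, TEKT4P2 and C1orf216, with control levels between 3.19 FPKM for TEKT4P2 and 12.3 FPKM for RP11-2C24.9. TEKT4P2 is a transcribed pseudogene, so the source of its reads is uncertain.

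**Figure D2:**
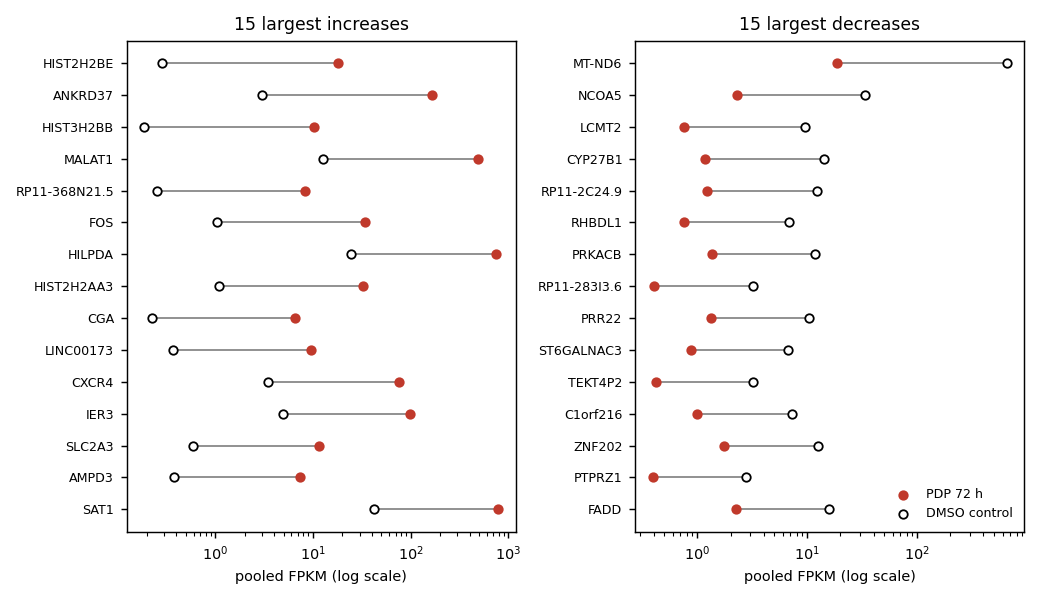
Pooled FPKM (x axis, log scale) with PDP for 72 h (filled red) and in the DMSO control (open) for the called genes with the 15 largest increases (left) and the 15 largest decreases (right). HILPDA, SAT1 and MALAT1 reached 748, 787 and 491 FPKM with PDP, while all 15 decreased genes had under 20 FPKM with PDP.

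Promoters of 4 of these genes are shown because they move strongly and carry a motif of interest. The windows run from 250 bases before to 50 bases after the RefSeq transcription start (GRCh38.p14), 5′ to 3′ on the strand of the gene. ANKRD37 lies on the plus strand at chr4:185396591-185396890 and NCOA5 on the minus strand at chr20:46089913-46090212, and capitals mark ACGTG, the core of the HIF response element, read on either strand. MALAT1 lies on the plus strand at chr11:65497488-65497787 and FADD on the plus strand at chr11:70203046-70203345, and capitals mark a G-run motif, 4 closely spaced runs of G that could fold into a G-quadruplex, which reads here as runs of C because the G runs are on the other strand. ANKRD37 and MALAT1 rose, while NCOA5 and FADD fell, so either motif is found on both sides.
ANKRD37: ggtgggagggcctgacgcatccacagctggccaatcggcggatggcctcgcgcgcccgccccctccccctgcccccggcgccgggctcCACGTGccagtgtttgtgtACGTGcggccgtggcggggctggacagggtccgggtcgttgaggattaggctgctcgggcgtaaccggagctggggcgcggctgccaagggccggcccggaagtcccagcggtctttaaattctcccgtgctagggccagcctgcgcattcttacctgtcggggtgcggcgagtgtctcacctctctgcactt
NCOA5: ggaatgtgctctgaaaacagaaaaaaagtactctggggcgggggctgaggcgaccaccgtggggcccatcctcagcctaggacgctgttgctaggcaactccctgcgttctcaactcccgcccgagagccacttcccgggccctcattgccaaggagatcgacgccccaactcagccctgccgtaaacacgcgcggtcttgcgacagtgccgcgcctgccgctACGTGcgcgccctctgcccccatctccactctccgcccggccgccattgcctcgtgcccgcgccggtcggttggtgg
MALAT1: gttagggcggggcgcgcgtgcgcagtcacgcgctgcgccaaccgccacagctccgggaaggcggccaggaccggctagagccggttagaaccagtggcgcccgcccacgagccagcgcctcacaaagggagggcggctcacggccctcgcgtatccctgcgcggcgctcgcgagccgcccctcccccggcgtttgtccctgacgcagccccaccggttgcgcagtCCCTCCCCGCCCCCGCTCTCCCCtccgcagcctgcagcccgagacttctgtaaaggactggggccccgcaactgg
FADD: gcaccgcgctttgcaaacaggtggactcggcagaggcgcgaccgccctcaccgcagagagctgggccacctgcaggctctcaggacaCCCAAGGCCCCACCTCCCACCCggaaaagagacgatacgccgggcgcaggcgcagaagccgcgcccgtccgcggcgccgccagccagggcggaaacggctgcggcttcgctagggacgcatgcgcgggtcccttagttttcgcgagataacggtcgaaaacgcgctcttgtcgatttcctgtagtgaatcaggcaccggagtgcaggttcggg

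HIF targets outside glycolysis were the only list of the 60 in which every expressed gene was called. The lists were chosen with earlier results of these data known, and 48 genes lie in more than 1 list. A place among the lists is therefore a description and not a test. Of 28 listed HIF targets outside glycolysis, 25 passed the minimum and 25 were called higher. Their median log2 fold change was 1.66 against 0.11 for all genes, with a range of 0.65 to 5.79. Over all 13518 genes 20.1% were called higher and 13.7% lower, the shares to set beside every list count below. Besides ANKRD37 and HILPDA, PPFIA4, a liprin scaffold protein, had 62.4 FPKM with PDP and 6.19 FPKM in the control. MIR210HG, the transcript that hosts miR-210, had 25.5 FPKM with PDP and 2.54 FPKM in the control (3.33, SE 0.59). The list genes CA9 and ANGPTL4, HIF targets in many tissues that were looked up after the values were seen, were under 0.2 FPKM in both conditions and were not tested. The mature miRNA was not measured; its sequence is given because its host transcript rose, with the seed, bases 2 to 8, in capitals (RefSeq, GRCh38.p14, chr11:568112-568133, minus strand).
hsa-miR-210-3p: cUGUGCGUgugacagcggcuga

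Among 14 expressed sensors and subunits of the HIF pathway 6 were called higher and 1 lower, with a median of 0.15. P4HA1 and P4HA2, the collagen prolyl hydroxylases grouped here with the oxygen-dependent enzymes, had 121 and 36.9 FPKM with PDP, against 26.6 and 10.7 FPKM in the control. EGLN3, a prolyl hydroxylase that HIF itself induces, had 27.2 FPKM with PDP and 8.25 FPKM in the control. CITED2, which competes with HIF for a coactivator, had 75.03 FPKM with PDP and 30.7 FPKM in the control. HIF1A, which encodes the HIF-1 alpha subunit and was looked up after the values were seen, had 54.2 FPKM with PDP and 63.4 FPKM in the control and was not called.

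Glycolysis and glucose entry were called higher for 19 of 26 expressed genes and lower for none, with a median of 1.12. ENO2, a glycolytic enolase, had 165 FPKM with PDP and 9.20 FPKM in the control (log2 fold change 4.17, SE 1.17). PFKFB4, which makes the activator of phosphofructokinase, had 35.7 FPKM with PDP and 5.71 FPKM in the control. GAPDH, among the 10 transcripts of highest FPKM, had 4821 FPKM with PDP and 1801 FPKM in the control. The summed level of the 26 genes was 16095 FPKM with PDP and 7702 FPKM in the control. SLC16A3, the lactate exporter, also looked up after the values were seen, was under the minimum with 1.35 FPKM with PDP and 0.376 FPKM in the control.

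TXNIP (arrestin family, a brake on glucose uptake) had 114 FPKM with PDP and 6.22 FPKM in the control, a log2 fold change of 4.20 (SE 0.25). Its relatives ARRDC3 and ARRDC4 also rose, to 11.5 and 24.2 FPKM with PDP, against 2.37 and 11.9 FPKM in the control. In the list of arrestin-domain genes and their glucose-sensing regulators, 4 of 9 were called higher and 1 lower.

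AP-1 subunits and ATF3 were called higher for 5 of 8 expressed genes and lower for none (median 2.79). ATF3, a stress-induced repressor, had 182 FPKM with PDP and 14.5 FPKM in the control (log2 fold change 3.64, SE 0.23). JUNB had 97.9 FPKM with PDP and 8.28 FPKM in the control, and JUND 96.3 FPKM with PDP and 12.7 FPKM in the control. The list of EGR, KLF and IER genes had 16 of 24 called higher and 2 lower (median 1.08), among them ZFP36, which destabilises AU-rich mRNAs, with 10.9 FPKM with PDP and 1.51 FPKM in the control. KLF9, a transcription factor also induced by steroid hormones, had 45.0 FPKM with PDP and 11.2 FPKM in the control.

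Feedback genes of the ERK pathway were called higher for 5 of 14 and lower for 2 (median 0.43). DUSP1, a phosphatase of MAP kinases, had 50.4 FPKM with PDP and 9.57 FPKM in the control (log2 fold change 2.40, SE 0.23). DUSP8, a related phosphatase, had 11.0 FPKM with PDP and 2.07 FPKM in the control. Genes of the ID and HES families and of Notch signalling were called higher for 14 of 17 and lower for none (median 0.89). HES7, a Notch-induced repressor, had 5.77 FPKM with PDP and 0.462 FPKM in the control. The Notch ligand genes JAG1 and DLL1 had 7.85 and 12.9 FPKM with PDP, against 1.603 and 2.74 FPKM in the control.

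Stress pathways of the endoplasmic reticulum and of amino acid shortage were called in both directions, as were all genes together (20.1% higher, 13.7% lower). ER chaperones and sensors were called higher for 4 of 23 and lower for 6, with a median of 0.08 that becomes -0.025 with equal FPKM sums. HSPA5, the main ER chaperone, had 808 FPKM with PDP and 162 FPKM in the control (log2 fold change 2.32, SE 0.19), while SEL1L, an adaptor for the removal of misfolded proteins, had 9.38 FPKM with PDP and 17.9 FPKM in the control. ERN1, which encodes the sensor IRE1, had 8.22 FPKM with PDP and 3.52 FPKM in the control. Targets of ATF4 were called higher for 4 of 31 and lower for 8 (median -0.10), and PPP1R15A, which restores translation after stress, stood out with 58.2 FPKM with PDP and 6.56 FPKM in the control. Aminoacyl-tRNA synthetases, which ATF4 also controls in part, were called higher for 1 of 20 and lower for 3 (median -0.19); KARS was the gene called higher, with 127 FPKM with PDP and 92.7 FPKM in the control.

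Cytosolic chaperones were called higher for 9 of 21 and lower for 1 (median 0.35). HSPA1B and HSPA1A, inducible HSP70 genes whose near-identical copies make their split uncertain, had 511 and 57.3 FPKM with PDP, against 62.9 and 7.85 FPKM in the control. HSPA8, the constitutive HSP70, had 2280 FPKM with PDP and 667 FPKM in the control. The CCT chaperonin, which folds actin and tubulin, had 1 of 8 subunits called higher, TCP1, with 465 FPKM with PDP and 291 FPKM in the control. HSPA6, an inducible HSP70 under the minimum and looked up after the values were seen, had 8.39 FPKM with PDP and 0.0347 FPKM in the control.

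Proteasome subunits were called lower for 5 of 31 and higher for none (median -0.17), with PSMD7 at 56.9 FPKM with PDP and 83.8 FPKM in the control as the largest of these decreases. Autophagy genes were called higher for 6 of 35 and lower for 2, with a median of 0.04 (-0.063 with equal FPKM sums). GABARAPL1, which coats autophagosomes, had 44.9 FPKM with PDP and 16.0 FPKM in the control, and TFE3, a regulator of lysosomal genes, 20.2 FPKM with PDP and 9.16 FPKM in the control. Lysosomal genes were called higher for 6 of 30 and lower for 1, with a median of 0.03 (-0.069 with equal FPKM sums).

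Cholesterol synthesis and its feedback were called higher for 10 of 27 and lower for 5 (median 0.35). INSIG1, which holds the sterol sensor in the ER, had 467 FPKM with PDP and 101 FPKM in the control (log2 fold change 2.21, SE 0.22). MSMO1 and HMGCS1, enzymes of the pathway, had 141 and 163 FPKM with PDP, against 44.1 and 53.3 FPKM in the control. Fatty acid synthesis was called higher for 4 of 18 and lower for 2, with a median of 0.08 (-0.020 with equal FPKM sums). GPAM, which starts triglyceride synthesis in mitochondria, had 9.23 FPKM with PDP and 16.8 FPKM in the control.

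Antioxidant genes under NRF2 were called higher for 2 of 20 and lower for 5 (median -0.16). HMOX1, heme oxygenase, had 31.9 FPKM with PDP and 11.5 FPKM in the control, and FTL, the ferritin light chain, 1039 FPKM with PDP and 490 FPKM in the control. SLC7A11, the cystine importer, and TXNRD1, thioredoxin reductase, fell, to 3.36 and 51.4 FPKM with PDP, against 5.74 and 85.6 FPKM in the control. Of the metal response genes 6 of 10 passed the minimum, and MT1X and MT2A, both metallothioneins, had 283 and 70.4 FPKM with PDP, against 70.0 and 28.5 FPKM in the control. The zinc exporter gene SLC30A1 fell, with 9.54 FPKM with PDP and 16.8 FPKM in the control.

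p53 and its targets were called higher for 7 of 22 and lower for 7 (median 0.15), in a line whose large T antigen binds p53. GADD45A, a DNA damage response gene, had 76.3 FPKM with PDP and 23.8 FPKM in the control, while MDM2, the ligase that degrades p53, had 12.8 FPKM with PDP and 37.6 FPKM in the control (log2 fold change -1.56, SE 0.69). BBC3, a death-promoting member of the BCL2 family, had 12.1 FPKM with PDP and 4.04 FPKM in the control, and FAS, a death receptor, 3.71 FPKM with PDP and 1.54 FPKM in the control. In the BCL2 family 7 of 17 were called higher and 1 lower, with a median of 0.09 (-0.012 with equal FPKM sums). BNIP3 and BNIP3L, mitophagy receptors and HIF targets, had 175 and 55.4 FPKM with PDP, against 35.1 and 16.5 FPKM in the control.

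Cell cycle genes were called in both directions, as were all genes together (20.1% higher, 13.7% lower). Cyclins, kinases and inhibitors of G1 were called higher for 6 of 23 and lower for 7, with a median of 0.06 (-0.049 with equal FPKM sums). The kinase inhibitors CDKN1C and CDKN2D had 10.6 and 13.3 FPKM with PDP, against 3.18 and 5.00 FPKM in the control, and E2F3, an activator of S phase genes, had 11.7 FPKM with PDP and 27.5 FPKM in the control. Replication licensing and fork genes were called higher for 3 of 50 and lower for 17 (median -0.25), with GINS3, part of the replicative helicase, at 9.51 FPKM with PDP and 34.4 FPKM in the control (log2 fold change -1.85, SE 0.25). FEN1, the flap endonuclease, had 28.4 FPKM with PDP and 84.7 FPKM in the control. Mitotic regulators were called higher for 10 of 38 and lower for 4 (median 0.28): PTTG1, the securin that guards sister chromatids, had 248 FPKM with PDP and 114 FPKM in the control, while CCNB1, cyclin B1, had 96.7 FPKM with PDP and 178 FPKM in the control.

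Among motor and cytoskeleton genes, kinesins were called higher for 6 of 21 and lower for 3 (median 0.16), and the largest increase was KIF5A, a neuronal transport kinesin, with 5.92 FPKM with PDP and 2.18 FPKM in the control. Tubulins were called higher for 3 of 15 and lower for 1 (median 0.29), and the gene called lower was TUBD1, delta tubulin, with 2.97 FPKM with PDP and 9.25 FPKM in the control. Intermediate filaments and lamins were called higher for 4 of 11 and lower for 1 (median 0.66). NEFL and NEFM, neurofilament genes that HEK 293T expresses, had 102 and 151 FPKM with PDP, against 22.4 and 37.8 FPKM in the control, and LMNB1, lamin B1, had 59.8 FPKM with PDP and 97.9 FPKM in the control. Collagens and collagen-modifying enzymes were called higher for 12 of 27 and lower for 1 (median 0.59); LOX and PLOD2, which crosslink collagen and are induced by HIF, had 20.7 and 175 FPKM with PDP, against 4.62 and 55.3 FPKM in the control.

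**Figure D3:**
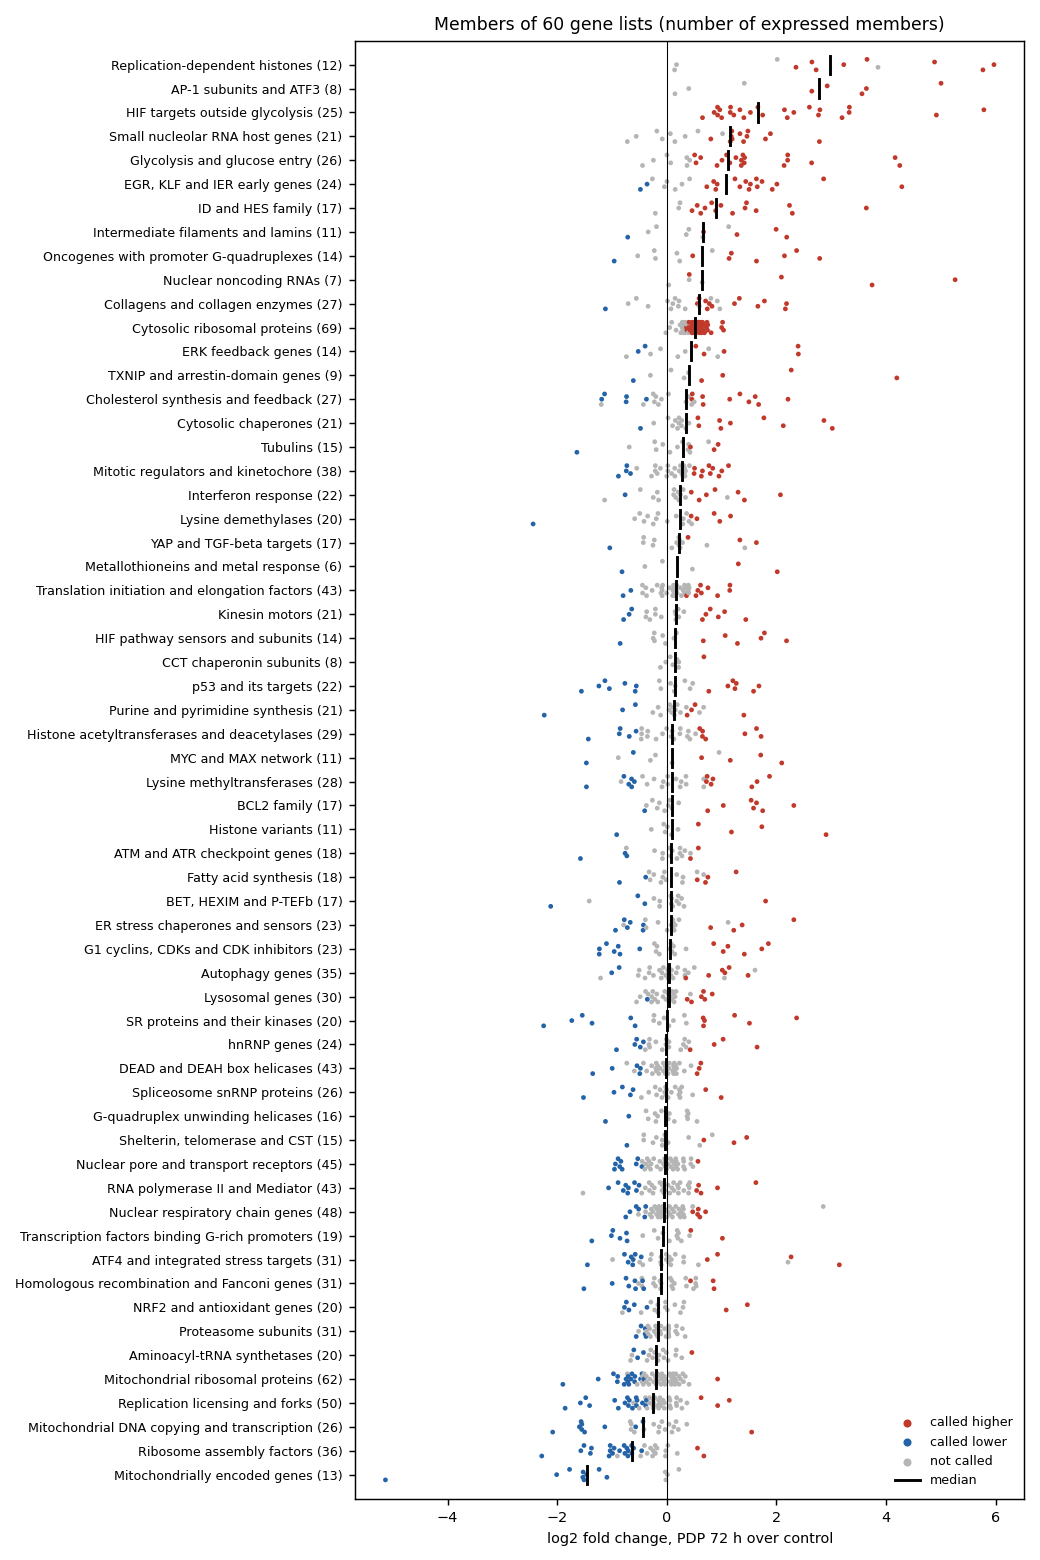
Log2 fold change after 72 h of PDP over the DMSO control (x axis) for the expressed genes of 60 lists, ordered by their median (black bar), with red for called higher, blue for called lower and grey for not called. Medians run from 2.98 for replication-dependent histones to -1.46 for mitochondrially encoded genes. The lists were chosen with earlier results of these data known.

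Homologous recombination and Fanconi genes were called higher for 3 of 31 and lower for 8 (median -0.11), with BRCA2 at 4.92 FPKM with PDP and 14.0 FPKM in the control and its partner PALB2 at 4.59 FPKM with PDP and 9.16 FPKM in the control. Checkpoint genes of ATM and ATR were called higher for 2 of 18 and lower for 3, with a median of 0.08 (-0.020 with equal FPKM sums). ATRIP, which brings ATR to single-stranded DNA, had 3.47 FPKM with PDP and 10.3 FPKM in the control (log2 fold change -1.58, SE 0.45).

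Helicases known to unwind G-quadruplexes were called lower for 2 of 16 and higher for none (median -0.03). BLM, the Bloom syndrome helicase, had 10.5 FPKM with PDP and 22.8 FPKM in the control, and BRIP1, the Fanconi helicase, 6.31 FPKM with PDP and 10.2 FPKM in the control. Genes of shelterin, telomerase and the CST complex, which act on G-rich telomere DNA, were called higher for 3 of 15 and lower for 1 (median -0.04). OBFC1, a CST subunit, had 7.75 FPKM with PDP and 3.31 FPKM in the control, while GAR1, a protein of the telomerase RNA particle, had 37.8 FPKM with PDP and 62.6 FPKM in the control.

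Splicing genes were called in both directions, as were all genes together (20.1% higher, 13.7% lower). SR proteins and their kinases were called higher for 6 of 20 and lower for 6 (median -0.0041). CLK3, a kinase of SR proteins, had 102 FPKM with PDP and 19.8 FPKM in the control, while SRSF6, SRSF7 and SRSF8, SR proteins themselves, had 38.6, 80.6 and 4.97 FPKM with PDP, against 183, 268 and 14.5 FPKM in the control. The hnRNP genes were called higher for 4 of 24 and lower for 5 (median -0.01): HNRNPU, a scaffold of chromatin and RNA, had 847 FPKM with PDP and 415 FPKM in the control, and HNRNPF, which binds G-rich RNA, 114 FPKM with PDP and 215 FPKM in the control. Spliceosome snRNP proteins were called higher for 2 of 26 and lower for 5 (median -0.02), and SF3B4, a U2 snRNP protein, had 20.1 FPKM with PDP and 57.7 FPKM in the control. DEAD and DEAH box helicases were called higher for 3 of 43 and lower for 5 (median -0.01), with DDX56, a nucleolar member, at 23.2 FPKM with PDP and 59.3 FPKM in the control.

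Genes for ribosome assembly and genes for ribosomal proteins were called in opposite directions. Ribosome assembly factors were called lower for 20 of 36 and higher for 2 (median -0.64). RRS1, an assembly factor of the large subunit, had 9.82 FPKM with PDP and 47.7 FPKM in the control (log2 fold change -2.28, SE 0.22), and UTP14A, of the small subunit, 16.8 FPKM with PDP and 44.2 FPKM in the control. The ribosomal proteins themselves were called higher for 49 of 69 and lower for none (median 0.52, and 0.42 after subtracting 0.10 for equal FPKM sums). RPL26, of the large subunit, had 6109 FPKM with PDP and 3050 FPKM in the control. Small nucleolar RNA host genes, whose introns carry the guides of rRNA modification, were called higher for 12 of 21 and lower for none (median 1.16), with SNHG1 at 1698 FPKM with PDP and 246 FPKM in the control.

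Translation factors were called higher for 9 of 43 and lower for 2 (median 0.17). EIF4A2 and EIF4G3, of the cap-binding complex, had 722 and 60.5 FPKM with PDP, against 325 and 27.2 FPKM in the control. EIF1AX, which scans for the start codon, had 76.1 FPKM with PDP and 132 FPKM in the control. Nuclear pore and transport genes were called lower for 9 of 45 and higher for 1 (median -0.04), with RANBP2 and NUP153 at 19.01 and 37.8 FPKM with PDP, against 36.8 and 72.3 FPKM in the control. Purine and pyrimidine synthesis was called higher for 4 of 21 and lower for 3 (median 0.14); UMPS, which completes UMP synthesis, had 13.4 FPKM with PDP and 63.0 FPKM in the control (log2 fold change -2.24, SE 0.61).

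Of the 13 mitochondrially encoded genes 9 were called lower and none higher (median -1.46). MT-ATP6, a subunit of the ATP synthase, had 1743 FPKM with PDP and 5963 FPKM in the control, and MT-ND2, of complex I, 965 FPKM with PDP and 2790 FPKM in the control. MT-CO2, of complex IV, had 4844 FPKM with PDP and 10329 FPKM in the control, whereas MT-CO1 of the same complex had 9206 FPKM with PDP and 9312 FPKM in the control and was not called. MT-ATP8 and MT-ND4L are very short and overlap MT-ATP6 and MT-ND4, so their FPKM are uncertain. The summed FPKM of the 13 genes was 55585 with PDP and 115955 in the control, which is a larger share of the control's total FPKM of 651196 than of the 699803 with PDP.

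Nuclear genes that copy and transcribe mitochondrial DNA were called lower for 9 of 26 and higher for 1 (median -0.42). TRMT10C, a subunit of mitochondrial RNase P, had 22.6 FPKM with PDP and 95.8 FPKM in the control (log2 fold change -2.08, SE 0.21). TFB2M, a factor that opens mitochondrial promoters, had 7.15 FPKM with PDP and 21.6 FPKM in the control, and C10orf2, the Twinkle helicase, 10.6 FPKM with PDP and 31.2 FPKM in the control. Mitochondrial ribosomal proteins were called lower for 17 of 62 and higher for 1 (median -0.20), with MRPL15 at 39.2 FPKM with PDP and 93.3 FPKM in the control. Nuclear genes of the respiratory chain were called higher for 5 of 48 and lower for 6 (median -0.05), and SDHA, of complex II, had 124 FPKM with PDP and 76.0 FPKM in the control.

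Histone genes and chromatin regulators differed by class. Of 31 listed replication-dependent histones 12 passed the minimum, which the PDP value helps to pass, and 8 were called higher and none lower (median 2.98). HIST1H1C, a linker histone, had 68.7 FPKM with PDP and 5.46 FPKM in the control (log2 fold change 3.65, SE 0.36). Histone variants, whose transcripts carry poly(A) tails, were called higher for 4 of 11 and lower for 1, with a median of 0.09 (-0.015 with equal FPKM sums). H1F0, a linker histone of resting cells, had 146 FPKM with PDP and 19.4 FPKM in the control, and H2AFY2, a macroH2A, 14.2 FPKM with PDP and 26.8 FPKM in the control.

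Acetyltransferases and deacetylases of histones were called higher for 7 of 29 and lower for 5, with a median of 0.10 (-0.0067 with equal FPKM sums). HDAC7 and HDAC11 had 21.9 and 10.3 FPKM with PDP, against 6.64 and 3.83 FPKM in the control, and HDAC4 had 1.54 FPKM with PDP and 4.16 FPKM in the control. Lysine demethylases, which include oxygen-dependent enzymes, were called higher for 5 of 20 and lower for 1 (median 0.23). KDM3A, a HIF target, had 51.9 FPKM with PDP and 23.2 FPKM in the control, and KDM8 had 1.01 FPKM with PDP and 5.48 FPKM in the control (log2 fold change -2.44, SE 0.87). Lysine methyltransferases were called higher for 7 of 28 and lower for 6, with a median of 0.09 (-0.010 with equal FPKM sums). EZH1, which methylates histone H3 lysine 27, had 42.0 FPKM with PDP and 11.5 FPKM in the control.

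BET proteins, HEXIM and P-TEFb were called higher for 1 of 17 and lower for 3, with a median of 0.08 (-0.021 with equal FPKM sums). BRD2, a BET protein, was the gene called higher, with 877 FPKM with PDP and 251 FPKM in the control, while MEPCE, which caps 7SK RNA and holds P-TEFb inactive with it, had 12.9 FPKM with PDP and 56.1 FPKM in the control (log2 fold change -2.12, SE 0.23). HEXIM1, the 7SK-bound inhibitor of P-TEFb, had 22.8 FPKM with PDP and 30.04 FPKM in the control. RNA polymerase II and Mediator subunits were called higher for 5 of 43 and lower for 9 (median -0.05), with CDK19, a Mediator kinase, at 18.7 FPKM with PDP and 6.04 FPKM in the control.

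Oncogenes known for promoter G-quadruplexes were called higher for 7 of 14 and lower for 1 (median 0.65). MYB had 8.50 FPKM with PDP and 1.23 FPKM in the control, and PDGFA, a growth factor, 9.16 FPKM with PDP and 1.77 FPKM in the control. VEGFA, an angiogenic factor that is also a HIF target, had 141 FPKM with PDP and 31.8 FPKM in the control. The MYC and MAX network was called higher for 4 of 11 and lower for 2, with a median of 0.10 (-0.0070 with equal FPKM sums). MYCL had 8.49 FPKM with PDP and 1.98 FPKM in the control, MXI1, an antagonist of MYC and a HIF target, 51.4 FPKM with PDP and 23.03 FPKM in the control, and MGA, a MAX partner that represses, 6.16 FPKM with PDP and 17.0 FPKM in the control. Transcription factors that bind G-rich promoters were called higher for 2 of 19 and lower for 6 (median -0.07), with WT1 at 2.58 FPKM with PDP and 6.66 FPKM in the control.

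Targets of YAP and TGF-beta were called higher for 3 of 17 and lower for 1 (median 0.22), with CTGF and CYR61, matricellular proteins, at 2.33 and 9.46 FPKM with PDP, against 0.750 and 3.75 FPKM in the control. Interferon response genes passed the minimum for 22 of 33 and were called higher for 7 and lower for 1 (median 0.23). IRF7, an interferon regulator, had 2.18 FPKM with PDP and 0.517 FPKM in the control (SE 1.15 for a log2 fold change of 2.07), and ISG15 had 7.70 FPKM with PDP and 4.18 FPKM in the control. Nuclear noncoding RNAs passed for 7 of 10, with 4 called higher and none lower: NEAT1, the scaffold of paraspeckles, had 289 FPKM with PDP and 21.6 FPKM in the control, and PVT1, the MYC neighbour, 27.8 FPKM with PDP and 6.52 FPKM in the control.

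The 3 RNA tables share their control, so their values are only set side by side. ANKRD37 had log2 fold changes of -0.32, 2.49 and 5.79 at 3 h, 24 h and 72 h, and CXCR4 had 0.10, 2.64 and 4.43. LINC00173 stood at 4.68 at 24 h and 4.70 at 72 h. Other genes were called at 72 h and not at 3 h or 24 h: SNHG1 had -0.05, -0.07 and 2.79, HSPA5 had -0.29, -0.18 and 2.32, PPP1R15A had 0.10, 0.22 and 3.15, and BRD2 had 0.06, -0.05 and 1.80.

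Some genes were called lower at 24 h and higher at 72 h. DNAJB1, a co-chaperone of HSP70, had -0.27, -0.56 and 2.13 at 3 h, 24 h and 72 h, and HSPA8 had -0.43, -0.70 and 1.77. H2AFX, the histone phosphorylated at DNA breaks, had -0.03, -0.88 and 0.58. Among decreases, SRSF6 had -0.02, -1.90 and -2.25 and MEPCE 0.22, -1.62 and -2.12, so most of the 72 h difference stood at 24 h, whereas FADD had -0.03, -0.48 and -2.81 and PRKACB -0.05, -0.43 and -3.11. The differences between times were not tested. List medians over the genes of the 72 h lists were for ribosomal proteins -0.08, -0.09 and 0.52, for ribosome assembly 0.04, -0.53 and -0.64, and for mitotic regulators -0.03, -0.29 and 0.28.

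**Figure D4:**
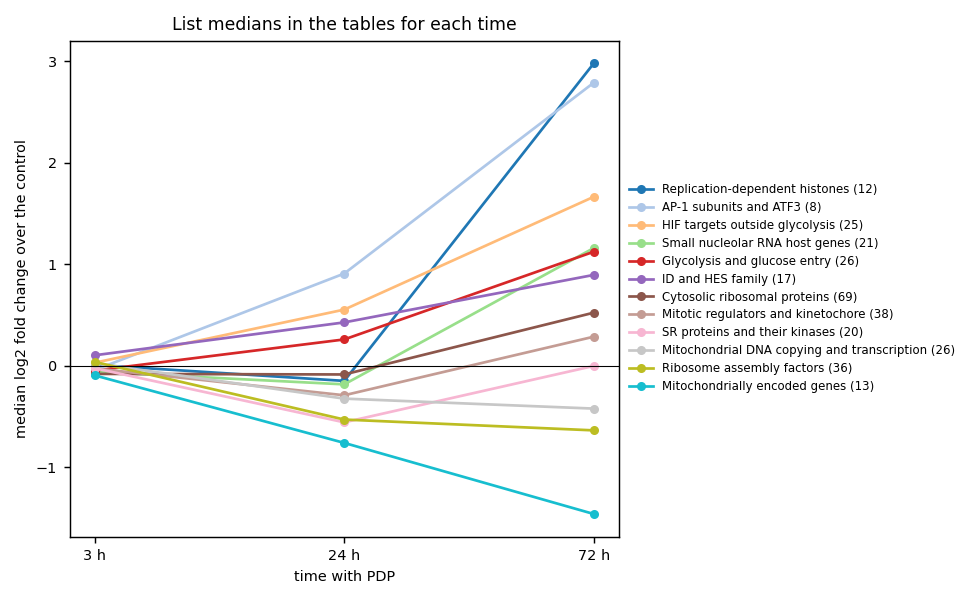
Median log2 fold change over the shared DMSO control (y axis) at 3 h, 24 h and 72 h of PDP (x axis) for 12 gene lists, each over its genes that were expressed in the 72 h table. HIF targets read 0.03, 0.55 and 1.66 and mitochondrially encoded genes -0.10, -0.76 and -1.46, while ribosomal proteins and small nucleolar RNA host genes lay near or under 0 at 24 h.

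Shares of calls are given here by gene class without a test of the differences, and the families, chromosomes and their genes were chosen after their values were seen. Long noncoding RNA genes were called higher for 23.2% and lower for 4.39% of 547, with a median of 0.51, against 20.7% and 14.9% of 11746 protein-coding genes. Genes of at least 100 FPKM were called higher for 31.0% and lower for 8.71% of 861. Protein-coding genes with a span over 100 kb were called lower for 8.88% of 2276, and those of 20 to 50 kb for 17.6% of 3198. These spans are the RefSeq lengths of the genes and were not taken from the deposited loci.

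The zinc finger genes named ZNF had many lower calls. Of 401 expressed ZNF genes 118 were called lower (29.4%) and 40 higher, with a median of -0.38, while genes outside the family were called lower for 13.2% and higher for 20.4%; the difference itself was not tested. On chromosome 19, where KRAB zinc finger genes lie in clusters, 52 of 170 ZNF genes were called lower and 7 higher, against 81 lower and 203 higher of the other 759 genes of that chromosome. ZNF701 and ZNF510 had 0.525 and 0.454 FPKM with PDP, against 3.50 and 2.71 FPKM in the control. In the other direction ZNF449 had 23.3 FPKM with PDP and 6.10 FPKM in the control, and ZNF395, known to respond to hypoxia, 37.99 FPKM with PDP and 13 FPKM in the control.

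HOX genes were called higher for 8 of 35 (22.9%) and lower for 4 (11.4%), against 20.1% and 13.7% of all genes. HOXA13, the most 5′ gene of its cluster, had 37.8 FPKM with PDP and 6.57 FPKM in the control (log2 fold change 2.53, SE 0.24), while HOXA2 and HOXD9 had 0.589 and 5.07 FPKM with PDP, against 1.73 and 14.6 FPKM in the control. Solute carriers were called higher for 33 (17.2%) and lower for 39 (20.3%) of 192. SLC24A4, a sodium and calcium exchanger, had 10.0 FPKM with PDP and 1.44 FPKM in the control, and SLC25A28, an iron importer of mitochondria, 6.85 FPKM with PDP and 25.9 FPKM in the control. Chromosome 13 had the highest share of lower calls among the autosomes, 56 of 242 (23.1%), and MIR17HG, the host transcript of the miR-17 cluster, had 7.72 FPKM with PDP and 44.1 FPKM in the control there.

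**Figure D5:**
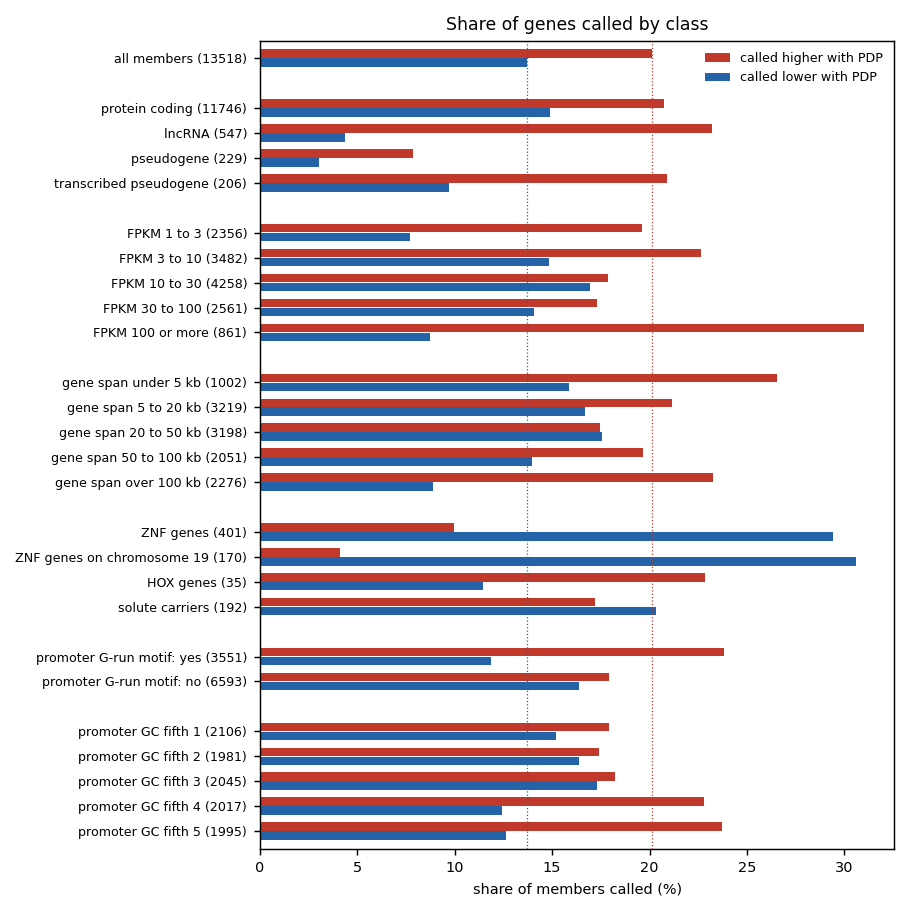
Share of expressed genes called higher (red) and lower (blue) after 72 h of PDP, in % (x axis), for classes of genes with their number in brackets; dotted lines mark the shares over all 13518 genes, 20.1% and 13.7%. ZNF genes had 29.4% lower calls, and genes with a promoter G-run motif had 23.8% higher and 11.9% lower calls.

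Promoters were compared for sequence. RefSeq windows (GRCh38.p14) matched 10144 of the 13518 genes. For 8583 of these the start lay in the deposited locus of the gene, and the shares of expressed genes below use all 10144 windows. The G-run motif was 4 runs of GGG or more with 1 to 7 bases of any kind between them, on either strand. It lay in 35.0% of these promoters and in 24.1% of all 27305 RefSeq promoters. It was found in 41.7% of the promoters of genes called higher, in 28.0% of those called lower and in 34.5% of those not called. Genes with it were called higher for 23.8% and lower for 11.9%, genes without it for 17.9% and 16.4%. Promoters of genes called higher also had a higher median GC content, 67.3%, than those of genes called lower, 64.7%.

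The difference was then read within 5 equal classes of promoter GC content, a division chosen after the data were seen. In the class of highest GC, 26.0% of genes with the motif and 18.7% without it were called higher, and 11.5% and 14.99% lower. In the class of lowest GC the shares called higher were 17.98% with and 17.9% without the motif, and those called lower 11.2% and 15.6%. In the classes between, by rising GC, 23.5%, 20.8% and 24.03% with the motif were called higher, against 15.9%, 17.01% and 21.8% without it. Lower calls there were 10.4%, 13.6% and 11.8% with and 17.9%, 19.1% and 12.995% without the motif. By FPKM class, genes with the motif were called higher for 27.1% at 1 to 3 FPKM, 27.3% at 3 to 10, 20.4% at 10 to 30, 19.5% at 30 to 100 and 35.03% at 100 or more. Genes without it were called higher for 20.6%, 18.7%, 15.9%, 14.8% and 28.99% in the same classes. Lower calls in these FPKM classes, in the same order, were 7.96%, 11.96%, 14.7%, 10.4% and 7.61% with the motif. Without it they were 11.01%, 18.99%, 18.9%, 15.9% and 7.89%. None of these differences was tested. A match is only a stretch of letters, and whether a structure forms at these promoters was not measured.

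The sequence ACGTG, read on either strand, lay in 27.2% of the matched promoters and in 21.6% of all RefSeq promoters. Among HIF targets outside glycolysis it lay in 14 of 21 matched promoters (66.7%), with ANKRD37 shown above. Its share was 26.4% among genes called higher and 29.1% among those called lower.

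The pull-down peaks, 51446 in the authors' deposited list, seldom lay at promoters. They overlapped 167 of the 27305 promoter windows and 45 of the 10144 windows of expressed genes. Of these 45 genes 10 were called higher (22.2%) and 4 lower (8.89%), against 19.98% higher and 14.8% lower of the 10099 genes without a peak there; the difference was not tested. With a window of 5 kb on each side of the start, 22.2% of genes called higher, 20.3% of genes called lower and 21.4% of all had a peak. The peaks came from purified, annealed DNA and not from treated cells.

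Promoters of 2 genes with such a peak, chosen after their values were seen because they were called in opposite directions, are shown with the bases under the peak in capitals. CNTNAP1, a contactin-associated protein of myelinated axons, had 8.88 FPKM with PDP and 1.80 FPKM in the control (log2 fold change 2.30), and its window on the plus strand, chr17:42682281-42682580, shares 111 bases with a peak at chr17:42682470-42682872. PTPRZ1, whose decrease is given above, has its window on the plus strand at chr7:121872911-121873210, of which 90 bases lie in a peak at chr7:121873121-121873523.
CNTNAP1: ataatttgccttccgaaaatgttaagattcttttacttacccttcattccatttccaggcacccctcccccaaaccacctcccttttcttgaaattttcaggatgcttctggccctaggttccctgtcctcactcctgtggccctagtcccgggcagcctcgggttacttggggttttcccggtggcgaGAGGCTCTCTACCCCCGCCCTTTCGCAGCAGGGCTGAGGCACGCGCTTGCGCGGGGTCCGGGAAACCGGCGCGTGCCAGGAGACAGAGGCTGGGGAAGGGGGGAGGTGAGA
PTPRZ1: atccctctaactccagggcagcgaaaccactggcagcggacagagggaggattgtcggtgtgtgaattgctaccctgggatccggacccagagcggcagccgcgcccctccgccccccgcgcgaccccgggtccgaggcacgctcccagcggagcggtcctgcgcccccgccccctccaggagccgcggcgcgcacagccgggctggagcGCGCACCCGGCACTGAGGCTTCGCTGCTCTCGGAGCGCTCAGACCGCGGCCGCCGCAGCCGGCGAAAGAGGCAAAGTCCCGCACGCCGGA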

How the data were processed

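The members and the 60 gene lists were chosen with earlier results of these data known. Poly(A) RNA from HEK 293T cells was sequenced with a stranded kit, per the labels' protocols; whether counting used strand is not given in the sources used here. Reads were handled with Trim Galore 0.4.4, HISAT2 2.0.5 and Cufflinks 2.2.1 on GRCh38.p7, and the pull-down with Bowtie2 2.2.9, SAMtools 1.3.1, Picard and HOMER 4.9.1, per the submitters' processing notes. The deposited tables give the authors' pooled FPKM per condition, with the authors' p-value and q-value per gene; the deposited peak list also has a score, which was not used. Depth is unknown.

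From these, log2(PDP/control) was computed without a pseudocount for genes with a completed test and a geometric mean of at least 1 FPKM, in Python 3.11.15 with pandas 2.3.3, NumPy 2.4.6, SciPy 1.17.1 and Matplotlib 3.10.9. Calls used the authors' q under 0.05, and recomputing q by Benjamini-Hochberg gave values within 5.16e-07. FPKM pooled over libraries allowed no test of its own and no pairing check. A check on simulated data planted changes far above a noise level that was known to it, so their recovery was near certain. It did not cover the authors' calls, the gene lists, the promoters or the peaks. Named genes were the 15 largest called increases and decreases, the 10 of highest FPKM, and in each list up to 4 called genes of largest change (with none called, the 2 of highest geometric mean), and the 2 nearest the minimum on either side; others are marked where they appear. Of the list entries 4 symbols had no match. Promoter sequences came from RefSeq (GRCh38.p14), matched by symbol or gene ID. Alternatives were other q, fold and FPKM limits, a pseudocount, and other scalings.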

Additional observations from a re-analysis of the deposited data

How the results depend on the processing

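No paired analysis was possible because the tables hold a single pooled value per condition, and for the same reason no replicate could be left out. Calls of 2721 higher and 1854 lower became 1342 and 702 with a log2 fold change of at least 1. They were 1909 and 1275 at q under 0.01, 1950 and 1495 with a minimum of 5 FPKM, 2935 and 1967 without a minimum, and 2753 and 1888 with p-values adjusted over these genes. Of the 120 higher and lower counts of the lists, 77 moved by over 1.5 times or to 0 with a log2 fold change of at least 1, 32 at q under 0.01 and 10 with a minimum of 5 FPKM. With a pseudocount of 1 FPKM, 26 of 260 named genes moved by more than their implied SE. The median of all genes was 0.11, and 0.0027 with equal FPKM sums. List medians that changed sign with equal FPKM sums were those of ATM and ATR (-0.020), autophagy (-0.063), BCL2 (-0.012), BET (-0.021), ER stress (-0.025), fatty acids (-0.020), G1 (-0.049), acetyltransferases and deacetylases (-0.0067), histone variants (-0.015), lysine methyltransferases (-0.010), lysosomes (-0.069) and MYC and MAX (-0.0070). Centring on the median of protein-coding genes changed the sign for ATM and ATR (-0.0035), autophagy (-0.046), BET (-0.0043), ER stress (-0.0085), fatty acids (-0.0036), G1 (-0.032) and lysosomes (-0.053). A minimum of 5 FPKM did so for MYC and MAX (-0.21) and metallothioneins (-0.079). For the scalings these shifts follow from subtracting a constant; for the minimum, from fewer genes. With 1 to 12 bases between G runs the motif lay in 52.0% of all matched promoters. It then lay in 59.96% of promoters of genes called higher, 44.5% of those called lower and 51.3% of those not called. Depth limits could not be given.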
